A study of Mus musculus with 20 samples.

Results

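The cells described here are CD8 T cells from B16-OVA melanomas that held at least 1 UMI of Havcr2, no UMI of Tcf7 and fewer than 4 UMIs of 6 mitosis genes (Mki67, Top2a, Birc5, Ube2c, Cenpf and Ccna2). A UMI (unique molecular identifier) counts 1 captured RNA molecule. CD8 T cells were barcodes with 500 or more genes, at most 10% mitochondrial UMIs, at least 3 UMIs of Cd3d, Cd3e and Cd3g together and at least 1 of Cd8a and Cd8b1, with fewer than 5 UMIs of 4 macrophage genes and fewer than 10 of 4 pigment genes. The gate held 580 cells of 7398 kept barcodes, 4930 CD8 T cells and 3036 non-mitotic CD8 T cells. They are called Havcr2+ Tcf7- cells below. The other 2456 non-mitotic CD8 T cells comprised 545 Tcf7-positive cells and 1911 double-negative cells, which had a UMI of neither gene. The cells were chosen by the measured UMIs of the gate genes, so those 21 genes were left out of every test.

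The donor T cells carried the OT-I receptor, which recognises an ovalbumin peptide, and came either from OT-I mice crossed to Tet2-/- mice (Tet2 knockout, KO) or from wild-type (WT) OT-I mice. They were transferred into mice bearing B16 melanoma that expresses ovalbumin, and tumour-infiltrating CD8+ cells were recovered 8 days later. No gate gene tells donor from host CD8 T cells, and the OT-I receptor segments were not examined. Whether host cells are among the gated cells was therefore not tested, and KO and WT name the donors of a library. The 4 groups were KO with anti-PD-L1 (antibody against the ligand of PD-1), KO untreated, WT with anti-PD-L1 and WT untreated, each with 1 single-cell library (10x Chromium 3′, version 2). The labels give neither the ages of the mice nor how many were pooled in a library. The 16 bulk RNA and ATAC samples of the series, taken at day 0 and day 3, were not used here.

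Havcr2 encodes TIM-3, an inhibitory receptor of chronically stimulated T cells, and Tcf7 encodes TCF1, the transcription factor that maintains the progenitor or stem-like state of such cells. In tumours, TCF1-expressing CD8 T cells are known to give rise to TIM-3-expressing cells, which carry cytotoxic granules and several inhibitory receptors but renew themselves poorly. Tet2 is an enzyme that oxidises methylated cytosine in DNA.

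Havcr2+ Tcf7- cells numbered 209 in KO anti-PD-L1, 104 in KO untreated, 214 in WT anti-PD-L1 and 53 in WT untreated. Their median UMI totals were 6145, 3675, 5068 and 3279 in that order, against 5385, 3500, 4481 and 3014 in the other non-mitotic CD8 T cells. Most sat at the edge of the gate: 390 had a single Havcr2 UMI, 123 had 2 and 67 had 3 or more. On the mitotic side, 29 lay just inside the limit with 3 mitotic UMIs, and 18 cells with the same Havcr2 and Tcf7 values lay just outside with 4. Havcr2 and Tcf7 rarely met, since only 19 non-mitotic cells had UMIs of both. At these depths a cell without a UMI may still express the gene, so the double-negative group can hold cells of either kind. No barcode of a Havcr2+ Tcf7- cell occurred in more than 1 library, and any pair of libraries shared 1 to 10 kept barcodes.

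The marker genes Pdcd1, Lag3 and Gzmb were all present in the gated cells. Cells with fewer than 2500 UMIs were left out, and each remaining cell was thinned to 2500 UMIs. Gzmb was then detected in 88.1% to 92.8% of Havcr2+ Tcf7- cells over the libraries. It was detected in 40.5% to 63.8% of the other non-mitotic CD8 T cells and in 0.357% to 2.7% of macrophages, which should lack it. Pdcd1 was detected in 48.5% to 66.7% of Havcr2+ Tcf7- cells against 45.8% to 53.4% of the other cells, and Lag3 in 40.5% to 77.3% against 44.1% to 71.6%. Pdcd1 and Lag3 therefore did not set the group apart from its neighbours in the way Gzmb did. The median UMI totals of macrophages were 2958 to 9040.

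Markers of macrophages and melanoma cells were low, and those of other cell types were mixed. The 15 macrophage markers summed to 131 to 306 CPM (UMIs per 1000000 of the group's total) in Havcr2+ Tcf7- cells and 159 to 217 CPM in the other cells, against 49855 to 56865 CPM in macrophages, and Csf1r was at 0 in the gated cells of all 4 libraries. The 12 melanoma markers summed to 29.4 to 81.6 CPM against 38.1 to 149 CPM, and Tyr and Sox10 were at 0 in the gated cells of all 4 libraries. The 12 dendritic cell markers, which include MHC class II genes, summed to 60.3 to 1195 CPM against 72.7 to 372 CPM. Cd209a, Fscn1 and Siglech were at 0 in the gated cells of all 4. The sum was highest in KO untreated, at 1195 CPM in the gated cells against 323 CPM in the other cells. There 9 of the 12 markers were detected in the gated cells, Flt3, Xcr1, Clec9a and Ccl22 among them, and 9 in the other cells. The NK cell markers other than Gzma and Prf1, 8 genes, summed to 30.6 to 78.3 CPM against 46.2 to 74.6 CPM, and Ncr1 and Klra8 were at 0 in the gated cells of all 4. Markers of CD4 and regulatory T cells, Ctla4 and Il2ra among them, summed to 240 to 563 CPM against 244 to 547 CPM. Gamma delta T cell markers summed to 112 to 333 CPM against 112 to 292 CPM. Red blood cell markers summed to 16.9 to 2872 CPM against 329 to 1410 CPM, and the 2872 CPM were in KO untreated. Y-linked UMIs were found in 0 of the KO cells of the gate, and in 15.9% of those of WT anti-PD-L1 and 7.55% of those of WT untreated. The sex of the T cell donors and their genotype thus cannot be told apart here. Tet2 itself was too low to check the labels, at 22.1 CPM in KO anti-PD-L1, 11.9 in KO untreated, 17.9 in WT anti-PD-L1 and 5.1 in WT untreated, and a 3′ tag outside a deleted part checks nothing.

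The share of CD8 T cells inside the gate was higher in both anti-PD-L1 libraries. It was 20.6% in KO anti-PD-L1 (209 of 1017, 95% exact binomial interval 18.1% to 23.2%) against 6.79% in KO untreated (104 of 1531, 5.58% to 8.17%). In WT it was 16.5% with anti-PD-L1 (214 of 1297, 14.5% to 18.6%) against 4.88% untreated (53 of 1085, 3.68% to 6.34%). The intervals of the treated and untreated libraries did not overlap in either genotype, and those of KO and WT overlapped under both conditions with this denominator. With non-mitotic CD8 T cells as denominator the 2 anti-PD-L1 intervals did not overlap, at 31.2% in KO (27.7% to 34.9%) against 22.1% in WT (19.6% to 24.9%). They did not overlap either without cells holding a myeloid or pigment UMI, at 22.4% in KO (19.6% to 25.5%) against 16.7% in WT (14.5% to 19.1%). Intervals cover counting error only, and with 1 library a group no difference has a replicate check.

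Depth moved with these shares, since both anti-PD-L1 libraries had more UMIs per cell. Only Havcr2 and Tcf7 were recounted after thinning. The CD8 T cell and mitotic limits used the full counts, so they could still depend on depth. Thinning left out cells with fewer than 2500 UMIs, and more of them in some libraries. It kept 1002 of 1017 CD8 T cells in KO anti-PD-L1 and 1419 of 1531 in KO untreated. In WT it kept 1237 of 1297 with anti-PD-L1 and 914 of 1085 untreated. Among non-mitotic cells it kept from 656 of 670 in KO anti-PD-L1 to 375 of 503 in WT untreated. After thinning to 2500 UMIs the share was 11.8% in KO anti-PD-L1 against 4.93% in KO untreated, and 10.8% in WT anti-PD-L1 against 3.06% in WT untreated. The fraction of mitotic cells differed too, at 34.1% of CD8 T cells in KO anti-PD-L1, 41.5% in KO untreated, 25.4% in WT anti-PD-L1 and 53.6% in WT untreated. Among non-mitotic CD8 T cells alone, after thinning, the share was 18.0% in KO anti-PD-L1 against 8.84% in KO untreated, and 14.8% in WT anti-PD-L1 against 7.47% in WT untreated. After thinning the KO and WT anti-PD-L1 intervals overlapped with either denominator, at 9.85% to 13.9% in KO against 9.15% to 12.7% in WT of CD8 T cells, and at 15.1% to 21.1% against 12.5% to 17.2% of non-mitotic ones. The order of the libraries was the same under each of these denominators.

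**Figure D1:**
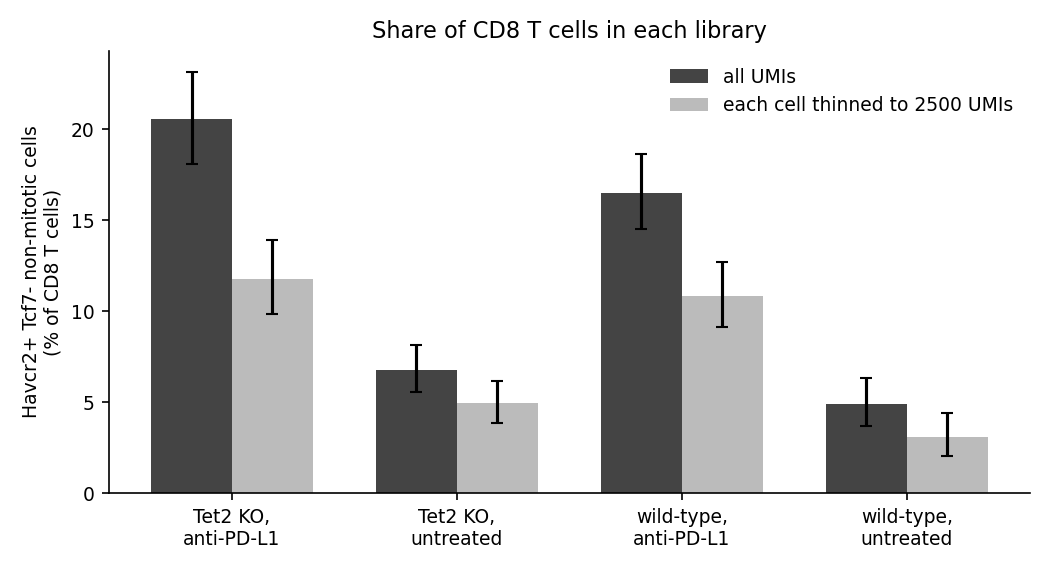
Share of CD8 T cells inside the Havcr2+ Tcf7- non-mitotic gate, in percent, for the 4 libraries (1 library a group). Dark bars use all UMIs. Light bars use only cells with at least 2500 UMIs, each thinned to 2500 UMIs, with only Havcr2 and Tcf7 recounted. Error bars are 95% exact binomial intervals. The anti-PD-L1 bars (20.6% in KO and 16.5% in WT with all UMIs) stand above the untreated ones (6.79% and 4.88%), and thinning narrows the gap in percentage points.

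Against the other non-mitotic CD8 T cells of the same library, Havcr2+ Tcf7- cells carried more RNA for granule proteins and inflammatory chemokines and less for genes of the progenitor state. UMIs were summed per library and cell group, and edgeR's quasi-likelihood test with library as a block was run on 7159 genes with Benjamini-Hochberg adjustment. At an adjusted p under 0.05, 147 genes were higher (2.05% of those tested) and 196 were lower (2.74%). The gate and the tested genes come from the same cells, so any gene that varies from cell to cell together with Havcr2 or Tcf7 enters these lists. Folds below are log2 values of Havcr2+ Tcf7- cells over the other cells, and levels are CPM in the order of libraries given each time, with the other cells' values in the same order.

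Genes of the lytic granule were higher as a group. Of 21 cytotoxic effector genes 18 were tested, and 10 were higher and 0 lower, with a list median of 0.40 against -0.0044 for all genes tested. Gzmb, the granzyme that cleaves caspases in target cells, had 4665 CPM in KO anti-PD-L1, 5435 in KO untreated, 4152 in WT anti-PD-L1 and 4715 in WT untreated, against 2406, 1468, 1744 and 1036 CPM in the other cells, a change of 1.53 ± 0.12 (SE), adjusted p = 4.15e-07. The Gzmb levels of the gated cells all lay above those of the other cells, so that the groups did not overlap. Gzma, a tryptase-like granzyme, had 1821 CPM in KO anti-PD-L1, 2368 in KO untreated, 1849 in WT anti-PD-L1 and 229.6 in WT untreated, against 755, 410.0, 704 and 44.5 CPM, a change of 1.76 ± 0.15 (SE), adjusted p = 7.36e-07. It was higher in the gated cells within each library, but the WT untreated library lay far below the others in both cell groups.

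Prf1, the pore-forming protein that lets granzymes enter target cells, had 54.5 CPM in KO anti-PD-L1, 47.8 in KO untreated, 37.5 in WT anti-PD-L1 and 81.6 in WT untreated, against 15, 8.79, 11 and 14.8 CPM, with a change of 1.99 ± 0.19 (SE), adjusted p = 2.57e-06. Its groups did not overlap. Gzmc had 36.8 CPM in KO anti-PD-L1, 38.2 in KO untreated, 336 in WT anti-PD-L1 and 1485 in WT untreated, against 14.6, 8.47, 58.2 and 137 CPM, a change of 2.63 ± 0.20 (SE), adjusted p = 3.37e-07, and Gzmf had 11 CPM in KO anti-PD-L1, 4.78 in KO untreated, 70.7 in WT anti-PD-L1 and 526 in WT untreated, against 4.23, 0, 20.4 and 84.3 CPM, a change of 2.17 ± 0.20 (SE), adjusted p = 1.81e-06. In KO untreated the other cells had no Gzmf UMI. Gzmc and Gzmf belong to the chromosome 14 cluster of closely similar granzyme genes, among which the authors' counting could have split or shared reads. Their levels differed far more between libraries than between cell groups, and in WT untreated 1 cell held 123 of 291 Gzmc UMIs and 1 cell held 70 of 103 Gzmf UMIs. Without the highest cell of each sum Gzmc stayed higher, at 2.78, and Gzmf at 1.66. Nkg7, a granule membrane protein, changed by 0.46, Srgn, the granule proteoglycan, by 0.30, and Ctsd, a lysosomal protease, by 0.56 (adjusted p = 7.92e-05, 0.0168 and 0.00125 in that order). Serpinb9, which inhibits granzyme B inside the killer cell, changed by 0.48 and its relative Serpinb9b by 0.89 (adjusted p = 0.0166 and 0.0238). Without WT anti-PD-L1 Srgn, Ctsd, Serpinb9 and Serpinb9b lost their call (adjusted p = 0.249, 0.0524, 0.165 and 0.337 in that order), and without KO untreated so did Srgn, Serpinb9 and Serpinb9b (0.162, 0.0745 and 0.0627). Serpinb9b was also lost without WT untreated (0.128). Without WT anti-PD-L1 6 of the list were higher.

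The granule genes are shown with the 200 bases before the start that the RefSeq promoter table gives (GRCm38.p6), because several of them hold the core letters that RUNX factors are known to bind. The 5 windows are Gzmb at chr14:56262335-56262534, Gzmc at chr14:56234658-56234857, Gzmf at chr14:56211408-56211607 and Gzma at chr13:113100982-113101181, all on the minus strand, and Prf1 at chr10:61297636-61297835 on the plus strand. For Gzmc and Prf1 that start lies inside the gene's full RefSeq span, which reaches to base 56241647 of chromosome 14 for Gzmc and begins at base 61297751 of chromosome 10 for Prf1, so these 2 windows do not lie before the outermost start. Each is written 5′ to 3′ along the gene's strand, with TGTGGT or its reverse complement ACCACA in capitals.
Gzmb: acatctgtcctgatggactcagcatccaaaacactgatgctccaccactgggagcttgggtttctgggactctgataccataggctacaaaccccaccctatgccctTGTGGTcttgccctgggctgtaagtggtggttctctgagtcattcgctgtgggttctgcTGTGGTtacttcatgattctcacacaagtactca
Gzmc: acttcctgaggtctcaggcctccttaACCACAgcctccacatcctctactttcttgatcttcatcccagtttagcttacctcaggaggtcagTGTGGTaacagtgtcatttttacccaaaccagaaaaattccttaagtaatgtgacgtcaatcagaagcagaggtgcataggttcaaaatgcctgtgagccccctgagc
Gzmf: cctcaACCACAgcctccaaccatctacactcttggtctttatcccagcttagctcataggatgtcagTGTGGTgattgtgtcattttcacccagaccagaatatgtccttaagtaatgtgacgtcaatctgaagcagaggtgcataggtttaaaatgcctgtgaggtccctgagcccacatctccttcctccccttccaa
Gzma: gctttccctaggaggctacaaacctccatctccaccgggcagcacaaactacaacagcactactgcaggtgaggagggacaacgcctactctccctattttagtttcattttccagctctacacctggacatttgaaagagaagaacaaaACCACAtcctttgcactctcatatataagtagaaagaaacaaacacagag
Prf1: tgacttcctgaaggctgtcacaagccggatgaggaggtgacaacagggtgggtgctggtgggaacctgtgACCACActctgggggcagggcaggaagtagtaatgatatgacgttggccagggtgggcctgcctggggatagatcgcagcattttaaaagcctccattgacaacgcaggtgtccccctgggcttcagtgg
The match nearest to the start of the promoter table began 34 bases before it in Gzmb, 108 in Gzmc, 133 in Gzmf, 50 in Gzma and 130 in Prf1. Gzmb, Gzmc and Gzmf held 2 matches each.

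In all, 5 motifs were searched on both strands in all 32851 promoters of the table, each 250 bases before to 50 bases after a start. TGTGGT was in 16.8% of all promoters, in 6 of the 10 listed promoters among the 12 most increased genes and in 2 of the 10 among the 12 most decreased genes. The 6 were those of Gzmc, Gzmf, Ccl3, Gzma, Gzmb and Fcer1g. Gzmb, Gzmc and Gzmf lie close together on chromosome 14, and the windows of Gzmc and Gzmf are closely alike, so the 6 are not separate occurrences. The AP-1 letters TGANTCA were in 7.81% of all promoters and in 1 and 0 of those 10 and 10, and TGACGT, part of the cyclic AMP response element, in 7.51% and in 3 and 1. The ETS letters CCGGAA were in 14.9% and in 1 and 2, and the T-box letters AGGTGT in 13.7% and in 2 and 1. The motifs were chosen after the expression values were seen. A match is a description of the letters and neither a binding site nor a cause.

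Chemokines and interferon gamma formed the second group of higher genes. Of 17 cytokine and chemokine genes 12 were tested, and 5 rose and 0 fell, the list median being 0.70. Ccl3, an inflammatory chemokine that attracts leukocytes, had 1595 CPM in KO anti-PD-L1, 2055 in KO untreated, 1791 in WT anti-PD-L1 and 903 in WT untreated, against 806, 201, 433 and 173 CPM, a change of 2.12 ± 0.22 (SE), adjusted p = 9.74e-06. Ccl3 was above every library of the other cells in each library of the gated cells. Ccl4, a related inflammatory chemokine, had 3607 CPM in KO anti-PD-L1, 3851 in KO untreated, 4516 in WT anti-PD-L1 and 949 in WT untreated, against 2512, 617, 1579.7 and 273 CPM, a change of 1.57 ± 0.20 (SE), adjusted p = 7.92e-05, and overlapped between groups. Ccl5, a chemokine that effector and memory CD8 T cells release, had 9730.0 CPM in KO anti-PD-L1, 7258 in KO untreated, 10072 in WT anti-PD-L1 and 1674 in WT untreated, against 5510.3, 3169, 6284 and 610.5 CPM, a change of 0.99 ± 0.08 (SE), adjusted p = 4.03e-07.

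Ifng, the effector cytokine of CD8 T cells, had 721 CPM in KO anti-PD-L1, 1314 in KO untreated, 1051 in WT anti-PD-L1 and 699 in WT untreated, against 624, 194, 199 and 114 CPM, a change of 1.92 ± 0.27 (SE), adjusted p = 0.000262. Its per-library folds were uneven: 0.21 in KO anti-PD-L1, 2.76 in KO untreated, 2.40 in WT anti-PD-L1 and 2.62 in WT untreated. Ccl1, a CCR8 ligand, changed by 1.39 (adjusted p = 7.36e-07). Xcl1, the ligand of the XCR1 receptor of cross-presenting dendritic cells, did not pass the test (adjusted p = 0.176), and its per-library log2 folds were -0.13, 1.66, 0.95 and -0.50 in the same order. Without WT untreated Xcl1 passed, at 0.81 (adjusted p = 0.00509). Ccl3 UMIs were uneven among cells: the median Havcr2+ Tcf7- cell of KO anti-PD-L1 had 1.65 Ccl3 UMIs per 10000, whereas the cell at the 90th percentile had 39.6. For Ifng the same 2 values were 1.65 and 14.0 in KO anti-PD-L1.

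**Figure D2:**
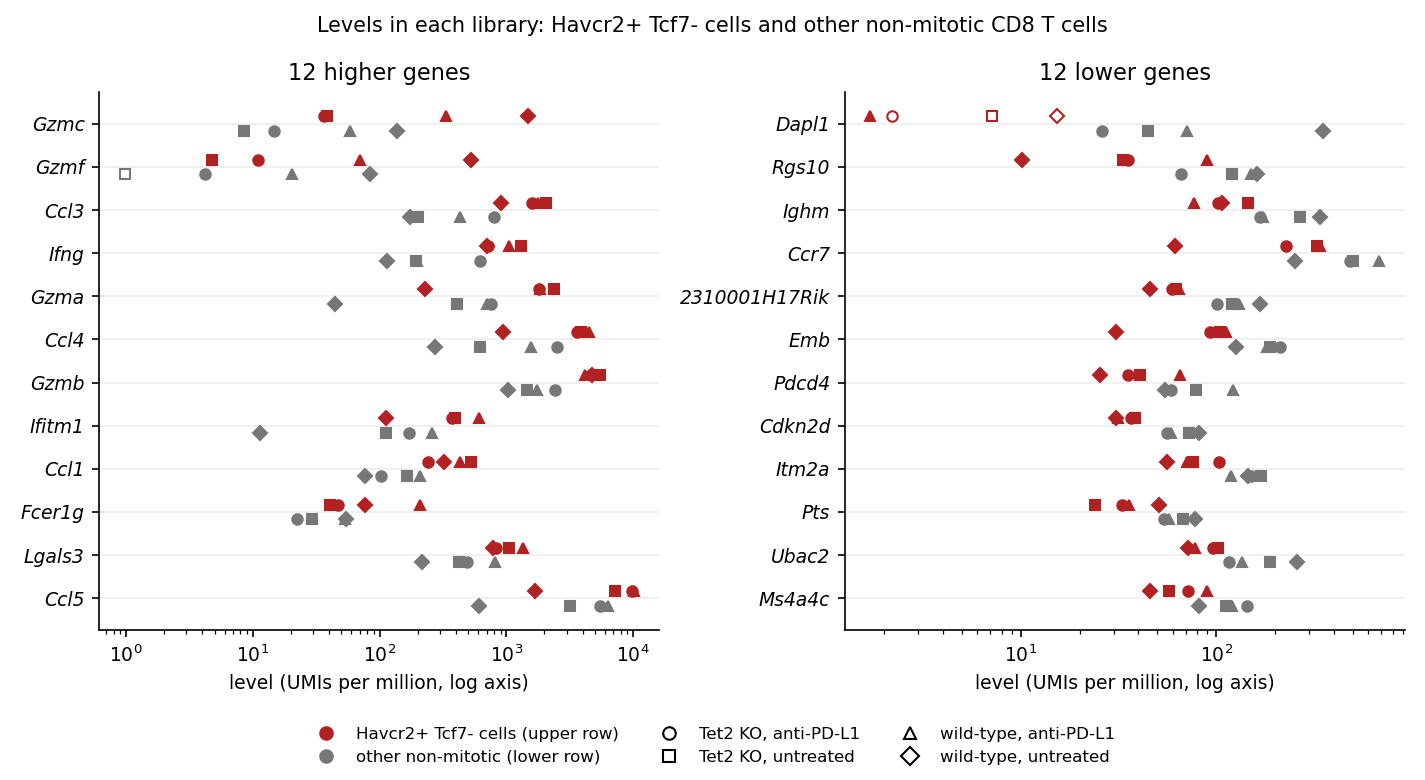
Levels of the 12 most increased and 12 most decreased genes with an adjusted p under 0.05, the same direction in every library and a mean of at least 50 CPM, in CPM on a log axis. Red marks are Havcr2+ Tcf7- cells, grey marks the other non-mitotic CD8 T cells, 1 mark for each of 4 libraries, and open marks stand at the level of 3 UMIs where none was found. Gzmb (4152 to 5435 CPM against 1036 to 2406 CPM) separates fully, whereas the granzymes Gzmc and Gzmf spread over more than a factor of 10 between libraries.

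Among inhibitory receptors other than Havcr2 a few were called higher, and the 1 listed gene called lower was a ligand, Cd200. Of 17 listed genes 13 were tested, of which 3 rose and 1 fell, the list median being 0.32. Cd244, the 2B4 receptor, was at 25.8 to 40.0 CPM against 9.12 to 15.8 CPM, a change of 1.42 ± 0.24 (SE), adjusted p = 0.00122. Lilrb4a, a receptor with inhibitory tail motifs, was at 35.7 to 71.4 CPM against 7.42 to 52.2 CPM, a change of 0.83 ± 0.17 (SE), adjusted p = 0.00696, and Klrc1, which encodes NKG2A, changed by 0.34 (adjusted p = 0.0348). Cd200, the ligand of an inhibitory receptor on myeloid cells, was at 11.9 to 29.4 CPM against 29 to 62.1 CPM, a change of -0.96 ± 0.17 (SE), adjusted p = 0.00142. None of the 13 passed the test without the WT anti-PD-L1 library, whereas 5 were higher without WT untreated, and DESeq2 called 1. Klrc1 also lost its call without KO anti-PD-L1 and without KO untreated (adjusted p = 0.0589 and 0.0501).

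Pdcd1, which encodes PD-1, had 458 CPM in KO anti-PD-L1, 366 in KO untreated, 548 in WT anti-PD-L1 and 378 in WT untreated, against 385, 318, 402 and 357 CPM, a difference of 0.24 ± 0.08 (SE), adjusted p = 0.108. Lag3 had 703 CPM in KO anti-PD-L1, 583 in KO untreated, 611 in WT anti-PD-L1 and 281 in WT untreated, against 568, 464, 514 and 308 CPM, a difference of 0.20 ± 0.08 (SE), adjusted p = 0.2, and Ctla4 differed by 0.20 ± 0.08 (SE), adjusted p = 0.224. None of the 3 passed the test, which does not show equality with the other cells. Pdcd1 and Lag3 passed without WT untreated, at 0.29 and 0.28 (adjusted p = 0.0309 and 0.0144), and without the highest cell of each sum, at 0.31 and 0.26 (0.0119 and 0.0333). Among 23 transcription factors of exhaustion and effector function 19 were tested, and 4 were higher and 1 lower. Id2, an inhibitor of E proteins that favours effector cells, had 674 CPM in KO anti-PD-L1, 599.7 in KO untreated, 910.4 in WT anti-PD-L1 and 709 in WT untreated, against 454, 378, 554 and 208 CPM, a change of 0.84 ± 0.12 (SE), adjusted p = 0.000277. Irf8 changed by 0.47, Rbpj, the nuclear partner of Notch, by 0.67 and Zeb2, a factor of terminal effector cells, by 0.56, while Ikzf2 changed by -0.67. Tox, the factor that maintains exhausted T cells, differed by -0.48 ± 0.17 (SE), adjusted p = 0.13, and was lower in the gated cells in 3 of 4 libraries; without KO anti-PD-L1 it passed, at -0.81 (adjusted p = 0.0132). The calls of Irf8, Rbpj, Zeb2 and Ikzf2 were lost without WT anti-PD-L1 (adjusted p = 0.104, 0.13, 0.309 and 0.269 in that order), those of Rbpj and Zeb2 also without KO untreated (0.0539 and 0.162), and that of Zeb2 without KO anti-PD-L1 (0.0654). The list then had 1 higher gene without WT anti-PD-L1 and 2 without KO untreated.

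Progenitor and memory genes were lower as a group. Of 22 genes 18 were tested, of which 0 rose and 11 fell, the list median being -0.66. The number that fell was 5 without WT anti-PD-L1, 7 without KO anti-PD-L1 and 5 with DESeq2, with 0 rising in each. It was 7 with depth-matched other cells, with at least 2 Havcr2 UMIs, without cells holding a myeloid or pigment UMI, without any mitotic UMI and with the first listing of barcodes. Slamf6, a surface marker of progenitor exhausted cells, had 9.57 CPM in KO anti-PD-L1, 7.17 in KO untreated, 10.2 in WT anti-PD-L1 and 5.1 in WT untreated, against 40.7, 72.6, 64.9 and 139 CPM, a change of -2.75 ± 0.22 (SE), adjusted p = 4.15e-07. Slamf6 did not overlap between the groups. Dapl1, a gene of memory-like T cells, was all but absent: the gated cells had 0, 0, 2 and 0 UMIs, against 26.1, 44.9, 71.1 and 351 CPM in the other cells.

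Ccr7, the chemokine receptor that leads T cells into lymph nodes, had 228 CPM in KO anti-PD-L1, 327 in KO untreated, 339 in WT anti-PD-L1 and 61.2 in WT untreated, against 481, 499, 683 and 253 CPM, a change of -1.04 ± 0.12 (SE), adjusted p = 2.34e-05. Id3, an inhibitor of E proteins that marks memory precursors, had 9 UMIs in all gated cells and changed by -2.23 ± 0.41 (SE), adjusted p = 0.00256. Myb, a regulator of T cell stemness, changed by -1.35, Lef1, the relative of TCF1, by -0.84, Bach2, a repressor of effector genes, by -0.85, and Klf2, which drives recirculation genes, by -0.71 (adjusted p = 0.000725, 0.00894, 0.031 and 0.00346 in that order). Without WT anti-PD-L1 the calls of Id3, Lef1, Bach2 and Klf2 were lost (adjusted p = 0.0505, 0.125, 0.282 and 0.0557 in that order), and without KO anti-PD-L1 those of Lef1 and Bach2 (0.0527 and 0.241). Among the most decreased genes outside the list were Rgs10, a brake on G protein signalling, at -1.21, Emb, an adhesion protein, at -1.02, Pdcd4, a translation inhibitor, at -0.89, and Cdkn2d, a cell cycle inhibitor, at -0.86. Ighm, the immunoglobulin mu chain, was also lower at -1.06, as were 2310001H17Rik (-1.03), Itm2a (-0.85), Pts (-0.83), Ubac2 (-0.80) and Ms4a4c (-0.79). Ubac2 lost its call without WT anti-PD-L1 (adjusted p = 0.0817).

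Receptors of cytokines, chemokines and co-stimulation shifted in part. Tnfrsf9, which encodes the co-stimulatory receptor 4-1BB, was the one of 15 tested co-stimulatory genes that passed, at 561 to 1125 CPM against 248 to 849 CPM, a change of 0.79 ± 0.09 (SE), adjusted p = 4.51e-05. Of 16 tested cytokine receptor and feedback genes 5 were higher and 1 lower. Il2rb, the beta chain shared by the IL-2 and IL-15 receptors, changed by 0.44, Il2ra by 0.50, and the IL-12 receptor chains Il12rb1 and Il12rb2 by 0.90 and 0.69. Of 15 tested homing receptors 4 were higher and 1 lower: Cxcr6, the receptor for CXCL16 that places T cells near dendritic cells, changed by 0.86 ± 0.10 (SE), adjusted p = 4.63e-05. Ccr2, a receptor for CCL2, changed by 0.65, and Cxcr3, the receptor for CXCL9 and CXCL10, by -0.69. Apart from Tnfrsf9 and Cxcr6, each of these receptors lost its call without WT anti-PD-L1 (adjusted p from 0.0665 to 0.209). Il2ra, Il12rb1 and Cxcr3 also lost it without KO anti-PD-L1 (0.223, 0.0629 and 0.0642), and Il2ra, Il12rb1 and Il12rb2 without KO untreated (0.145, 0.0606 and 0.135). The cytokine receptor and feedback list then had 0 higher genes without WT anti-PD-L1, 2 without KO anti-PD-L1 and 1 without KO untreated, and the homing list 1 without WT anti-PD-L1 and 2 without KO untreated. DESeq2 called 2 higher in each list.

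Ribosomal protein genes showed a small fall of wide reach, with 22 of 24 lower and a median of -0.21. The number lower was 8 without WT anti-PD-L1, 13 without KO untreated and 10 with DESeq2. It was 6 with at least 2 Havcr2 UMIs, 6 without any mitotic UMI, 14 without cells holding a myeloid or pigment UMI and 12 without the highest cell of each sum. Of the T cell receptor signalling list, 6 of 26 tested genes were higher and 0 lower, against 2 without WT anti-PD-L1, 3 without KO untreated and 3 without any mitotic UMI. The 6 included Dusp5, a phosphatase of ERK, at 0.71. Of 22 tested glycolysis and hypoxia genes 4 were higher, among them Ldha at 0.21 and the glucose transporter Slc2a3 at 0.66, and 1 of 25 oxidative phosphorylation genes was. The glycolysis and hypoxia list had 0 higher genes without WT anti-PD-L1, 1 without KO anti-PD-L1, 2 without KO untreated and 0 without any mitotic UMI. Slc2a3 lost its call without KO anti-PD-L1 and without WT anti-PD-L1 (adjusted p = 0.0906 and 0.0557), and Ldha without these and without KO untreated (0.0629, 0.164 and 0.0908). The oxidative phosphorylation call was lost without KO anti-PD-L1, without KO untreated and without WT anti-PD-L1. Mt1 and Mt2, which bind zinc and other metals, were higher by 0.81 and 0.85, and the galectins Lgals1 and Lgals3 by 0.48 and 1.08. Of 15 tested G2/M genes 2 were lower. Fcer1g, a signalling adaptor also made by myeloid and NK cells, was at 40.6 to 207 CPM against 22.3 to 54.6 CPM, a change of 1.33 ± 0.19 (SE), adjusted p = 0.00025, which was lost without WT anti-PD-L1 (adjusted p = 0.121). Ifitm1, an antiviral membrane protein, changed by 1.45.

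MHC class II genes met the threshold as well, but 3 cells with 5 or more such UMIs held 87.1% of the 747 MHC class II UMIs of the gated cells. H2-Ab1 was at 22.1 to 232 CPM against 12.1 to 77.6 CPM, a change of 1.76 ± 0.36 (SE), adjusted p = 0.00538, and H2-Eb1 changed by 1.89. Without the highest cell of each sum the folds were -0.10 for H2-Ab1 and -0.78 for H2-Eb1, with adjusted p of 0.903 and 0.369 in edgeR. Both also lost their call without KO untreated (0.0518 and 0.305) and without WT anti-PD-L1 (0.244 and 0.492). Likewise, 1 cell of KO untreated held 693 of 702 Hbb-bs UMIs of that library's gated cells.

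**Figure D3:**
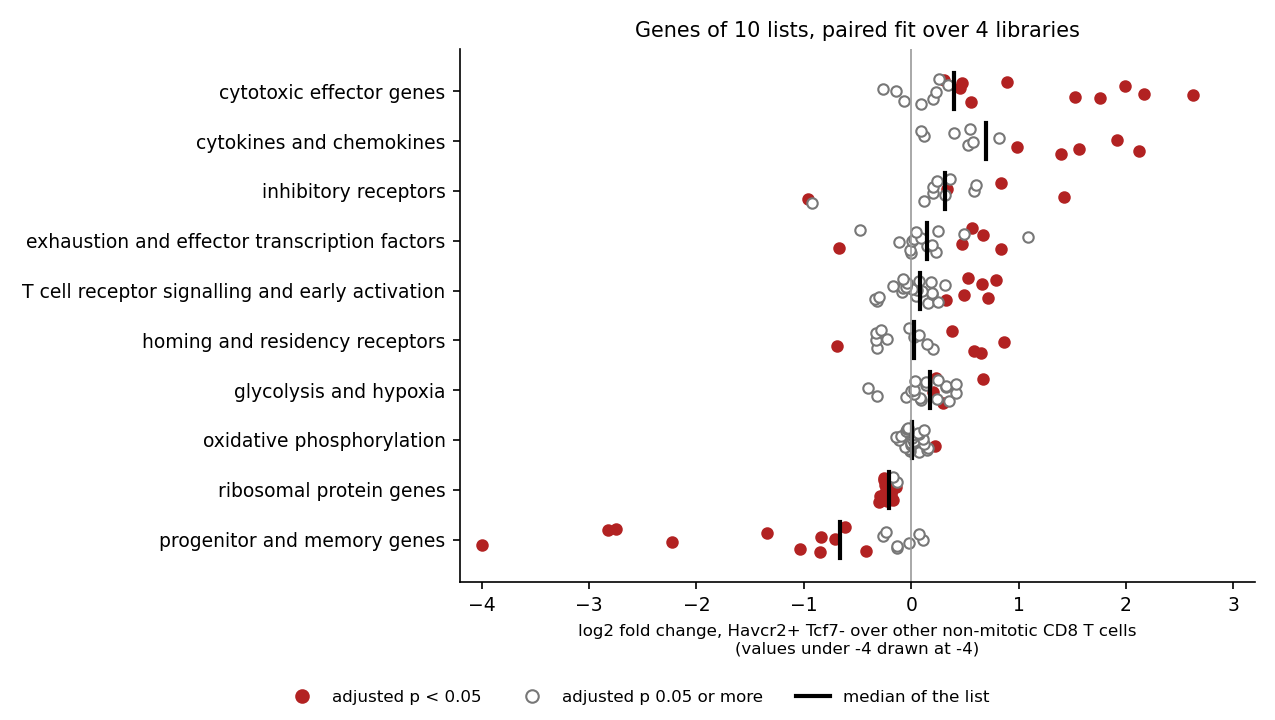
Log2 fold changes of Havcr2+ Tcf7- cells over the other non-mitotic CD8 T cells for the tested genes of 10 lists, from the paired edgeR fit over 4 libraries. Filled red points have an adjusted p under 0.05, open points do not, black bars are list medians, and Dapl1 is drawn at -4. The cytotoxic list leans to the right (median 0.40, 10 of 18 higher) and the progenitor list to the left (median -0.66, 11 of 18 lower).

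The comparison was then split by the group of neighbours, and these comparisons share the sums of the gated cells. Against the 545 Tcf7-positive cells, 360 of 5102 genes were higher (7.06%) and 425 lower (8.33%). Pdcd1, Lag3 and Ctla4 all passed here, at 0.64 ± 0.11 (SE), adjusted p = 0.000686 for Pdcd1, 0.50 for Lag3 and 0.58 for Ctla4, and 6 of 10 tested inhibitory receptors were higher. Lag3 lost its call without KO anti-PD-L1 and without WT anti-PD-L1 (adjusted p = 0.0527 and 0.0536). In WT untreated Lag3 was not higher, at 281 CPM in the gated cells against 286 CPM in Tcf7-positive cells. It was higher in the gated cells of each other library. Pdcd1 averaged 437 CPM in Havcr2+ Tcf7- cells, 392 CPM in double-negative cells and 278 CPM in Tcf7-positive cells. Tox was lower in the gated cells, at 42.7 CPM in KO anti-PD-L1, 33.4 in KO untreated, 28.1 in WT anti-PD-L1 and 71.4 in WT untreated, against 56.9, 65.4, 68.8 and 163 CPM, a change of -1.01 ± 0.19 (SE), adjusted p = 0.00129. The gated cells were thus below Tcf7-positive cells in Tox while above them in Pdcd1.

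Granule genes spanned a wide range along the same axis. Gzmb averaged 4742 CPM in Havcr2+ Tcf7- cells, 2077 CPM in double-negative cells and 361 CPM in Tcf7-positive cells, and the change against Tcf7-positive cells was 3.73 ± 0.22 (SE), adjusted p = 9.43e-09. Gzma changed by 4.20, Prf1 by 3.95, Ccl3 by 3.98, Ifng by 3.50 and Cxcr6 by 2.43. In the other direction, Slamf6 had 9.57 CPM in KO anti-PD-L1, 7.17 in KO untreated, 10.2 in WT anti-PD-L1 and 5.1 in WT untreated, against 98.1, 168, 158 and 203 CPM, a change of -3.97 ± 0.22 (SE), adjusted p = 5.33e-09, and Izumo1r, a folate receptor relative found on progenitor cells, changed by -2.38. Of 17 tested progenitor genes 11 were lower and 0 higher, and of 24 ribosomal protein genes 23 were lower.

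Against the 1911 double-negative cells, 64 of 6872 genes were higher (0.931%) and 90 lower (1.31%). The higher genes included 8 of 18 tested cytotoxic genes, among them Gzmb at 1.19 ± 0.10 (SE), adjusted p = 4.87e-07 and Prf1 at 1.69, and also Ccl3 at 1.81, Ifng at 1.64 (higher in 3 of 4 libraries) and Id2 at 0.64. The differences of Pdcd1 (0.13), Lag3 (0.12) and Tox (-0.30) did not pass the test (adjusted p = 0.528, 0.612 and 0.512 in that order). Slamf6 at -2.05 and Ccr7 at -0.84 stayed lower, among 4 of 16 tested progenitor genes. DESeq2 called 5 cytotoxic genes higher and 1 progenitor gene lower. The gated cells with 2 or more Havcr2 UMIs had more Gzmb than those with 1 UMI in every library, at 5252, 9422, 4463 and 5228 CPM against 4270, 4371, 3961 and 4576 CPM in the order KO anti-PD-L1, KO untreated, WT anti-PD-L1 and WT untreated. Gzma and Prf1 were likewise higher in every library, and Slamf6 lower. The other genes compared were mixed: with 2 or more UMIs Ccl3, Ifng, Lag3 and Ctla4 were lower in WT anti-PD-L1 (Ifng at 933 CPM against 1123 CPM), Pdcd1 and Id2 in KO untreated, and Ccl5 and Tox in WT untreated. These are descriptions of cells that Havcr2 itself chose, and whether depth per cell plays a part was not tested.

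**Figure D4:**
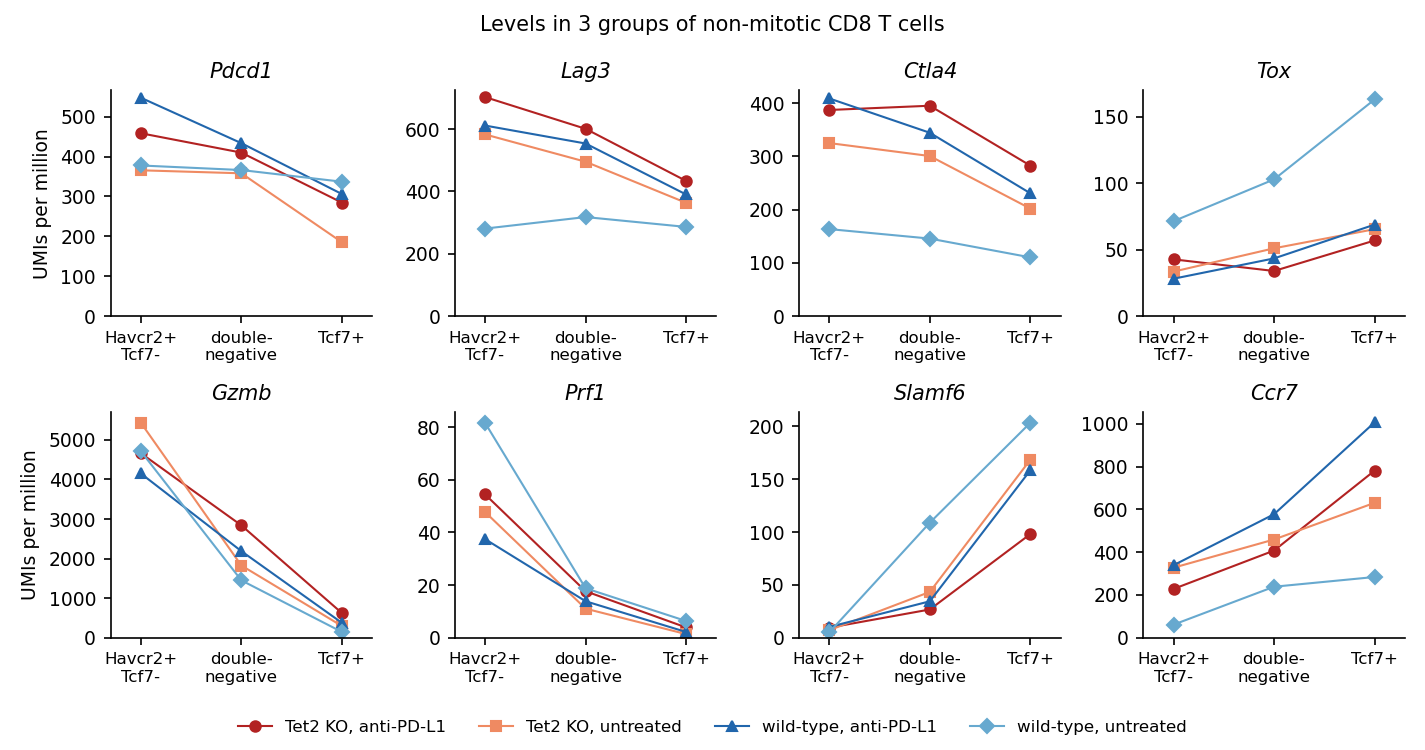
Levels of 8 genes in CPM (linear axes from 0) in Havcr2+ Tcf7-, double-negative and Tcf7-positive non-mitotic CD8 T cells, 1 line for each of 4 libraries. Gzmb averages 4742, 2077 and 361 CPM from left to right, Slamf6 and Ccr7 run the other way, and Pdcd1, Lag3 and Ctla4 change by less.

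The 4 libraries of gated cells were set side by side next. With 1 library a group there is no test, and an interval covers counting error only. Genes were used where the 4 libraries averaged 100 CPM or more, 1318 in all, and a gene was counted where 2 libraries differed by 1.5-fold or more. Folds are again log2 values, with exact 95% intervals.

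At the 1.5-fold line fewer genes were counted between KO and WT gated cells with anti-PD-L1 than without. With anti-PD-L1 the gated cells held 1358781 UMIs in KO and 1174268 in WT, against 418566 and 195966 untreated. Counting error at low UMI totals can add to a count, and how far it does is not given here. In the other non-mitotic cells 17 genes were higher in KO and 17 lower with anti-PD-L1, against 112 and 102 untreated. In the gated cells with anti-PD-L1, 25 genes were higher in KO (1.9%) and 30 lower (2.28%), with a median log2 fold of 0.07. Gzmb differed by 0.17 (95% interval 0.11 to 0.22) and Gzma by -0.02 (95% interval -0.11 to 0.06), both under the 1.5-fold line. The granzymes Gzmc and Gzmf were lower in KO: Gzmc had 36.8 CPM in KO anti-PD-L1, 38.2 in KO untreated, 336 in WT anti-PD-L1 and 1485 in WT untreated, with a fold of -3.19 (95% interval -3.65 to -2.77), and Gzmf a fold of -2.68 (95% interval -3.58 to -1.87). Both WT libraries lay above both KO libraries for Gzmc in the gated cells. In mitotic CD8 T cells with the same Havcr2 and Tcf7 limits, WT untreated did not lie above KO untreated for either gene. There Gzmc had 233 CPM in KO anti-PD-L1, 271 in KO untreated, 414 in WT anti-PD-L1 and 236 in WT untreated. Gzmf had 25.9, 78.8, 125 and 7.87 CPM in the same order. The metallothioneins followed: Mt1 had 474 CPM in KO anti-PD-L1, 368 in KO untreated, 1238 in WT anti-PD-L1 and 832 in WT untreated, with a fold of -1.39 (95% interval -1.52 to -1.25), and Mt2 a fold of -1.41 (95% interval -1.61 to -1.21). Other genes lower in KO were Tsc22d3, a glucocorticoid-induced gene, at -1.12, Malat1, a nuclear long non-coding RNA, at -0.86 and Plac8 at -0.88.

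Genes higher in KO under anti-PD-L1 included the heat shock chaperone Hspa1a, with 221 CPM in KO anti-PD-L1, 55 in KO untreated, 14.5 in WT anti-PD-L1 and 199 in WT untreated and a fold of 3.93 (95% interval 3.23 to 4.73). One cell held 66 of the 300 Hspa1a UMIs of KO anti-PD-L1. Spp1, which encodes the secreted protein osteopontin, differed by 1.24 (95% interval 1.05 to 1.44), and Gm156 by 1.04. Tuba1b, Stmn1 and Mcm5, genes of tubulin and DNA replication, were higher by 0.78, 0.77 and 1.08, as were 2810417H13Rik (0.91) and Hspd1 (0.69). The share of gated cells with no mitotic UMI was 66.5% in KO anti-PD-L1 against 80.8% in WT anti-PD-L1.

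The WT untreated library stood apart. Between KO and WT untreated, 146 genes were higher in KO (11.1%) and 192 lower (14.6%), and between WT with anti-PD-L1 and WT untreated 171 were higher with anti-PD-L1 (13.0%) and 329 lower (25.0%). Only 37.7% of its gated cells had no mitotic UMI, against 66.5% to 80.8% in the other libraries. It had 53 gated cells in all, with 195966 UMIs, the fewest of any library, so counting error weighs most on its counts. Ccl5 had 9730.0 CPM in KO anti-PD-L1, 7258 in KO untreated, 10072 in WT anti-PD-L1 and 1674 in WT untreated, which puts WT untreated lowest by a fold of 2.12 (95% interval 1.95 to 2.29) for KO over WT untreated and 2.59 (95% interval 2.43 to 2.75) for anti-PD-L1 over untreated in WT. Nr4a1, an early gene of T cell receptor signalling, had 208 CPM in KO anti-PD-L1, 237 in KO untreated, 249 in WT anti-PD-L1 and 5.1 in WT untreated, the last value from a single UMI. Gadd45b, a stress and NF-kB target, had 2 UMIs and Tgif1, a transcriptional repressor, 3 in WT untreated, against 294 and 189.9 CPM in KO anti-PD-L1.

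The same library lay high for cell division and low for T cell activation. Of 6 S phase genes past the floor 5 were lower in KO than in WT untreated, and all 6 were lower with anti-PD-L1 than without in WT. Tuba1b differed by -1.45 and Nasp, a histone chaperone, by -1.73 for KO over WT untreated. Of 13 T cell receptor signalling genes 10 were higher in KO than in WT untreated, among them Dusp2 at 2.48 (95% interval 2.00 to 3.01), and Junb, an AP-1 subunit, at 2.38 (95% interval 2.08 to 2.70). Lag3 differed by 1.05. Serpinb9b, Serpine2, Chchd10 and Tuba1a were lower in KO, with folds of -2.77, -2.72, -2.13 and -2.13. The other non-mitotic CD8 T cells of the library shared much of this, with 2.38 (2.28 to 2.48) for Ccl5 and 2.87 (2.34 to 3.44) for Nr4a1. The part of the mitotic UMIs in these differences was not tested.

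Scaling changed the balance of these counts. With TMM factors in place of library totals, KO over WT untreated gave 67.1% of its counted genes as higher against 43.2% with totals, and anti-PD-L1 over untreated in WT gave 56.4% against 34.2%. For KO over WT with anti-PD-L1 the split was 27.1% against 45.5%. TMM moved the median of all genes by more than 0.1 in both comparisons with WT untreated, to 0.07 against -0.09 and to 0.01 against -0.20. With TMM the fold of Gzmb for anti-PD-L1 over untreated in WT was 0.02 against -0.18, a change of direction; for KO over WT, that of Pdcd1 untreated was 0.11 against -0.05 and that of Cxcr6 with anti-PD-L1 -0.05 against 0.02.

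Among KO gated cells, anti-PD-L1 left most genes within 1.5-fold. With anti-PD-L1 45 genes were higher than without (3.41%) and 26 lower (1.97%). Higher genes included Serpine2, a secreted protease inhibitor, at 2.19 (95% interval 1.38 to 3.12), Crem, a cyclic AMP-responsive repressor, at 1.17 (95% interval 0.79 to 1.57), and Hspa1a at 2.01. Of the 8 named genes, 5 were ribosomal protein genes or copies of them, among them Rps28 with 2393 CPM in KO anti-PD-L1, 882 in KO untreated, 3245 in WT anti-PD-L1 and 1766 in WT untreated, and their level in KO untreated was low in the other cells as well, with a fold of 1.26 (1.20 to 1.32). Many ribosomal protein genes have near-identical copies, and their values are uncertain. Lower genes included Fabp5, a fatty acid carrier, at -1.26, Ccl1 at -1.13, Dusp2 at -0.64 and Cks1b at -0.93, and the lysosomal genes Psap and Ctss at -0.99 and -0.93. Macrophage and dendritic cell markers were also lower with anti-PD-L1 in KO gated cells. They summed to 131 and 60.3 CPM with it, against 306 and 1195 CPM untreated. The part of RNA from such cells in Psap and Ctss is not given here.

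In KO, Ifng and Xcl1 were lower with anti-PD-L1 in the gated cells and higher in the other non-mitotic cells. Ifng had 721 CPM in KO anti-PD-L1, 1314 in KO untreated, 1051 in WT anti-PD-L1 and 699 in WT untreated, so that with anti-PD-L1 the KO gated cells differed by -0.87 (95% interval -1.02 to -0.71), whereas the other non-mitotic KO cells were higher with anti-PD-L1, at 1.69 (1.55 to 1.82). Xcl1 had 2043 CPM in KO anti-PD-L1, 4138 in KO untreated, 2985 in WT anti-PD-L1 and 489.9 in WT untreated, with folds of -1.02 (95% interval -1.11 to -0.93) in gated cells and 0.78 (0.72 to 0.83) in the others. Gzmb and Gzma showed the same contrast, with -0.22 (95% interval -0.29 to -0.15) for Gzmb in gated cells against 0.71 (0.66 to 0.77) in the others, and -0.38 (95% interval -0.49 to -0.27) for Gzma against 0.88 (0.78 to 0.98). The highest cell held 119 of the 550 Ifng UMIs in KO untreated gated cells and 180 of 980 in KO anti-PD-L1. The difference between the 2 cell groups was not tested.

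In WT gated cells the same genes were compared with and without anti-PD-L1. Gzma was higher with anti-PD-L1 by 3.01 (95% interval 2.58 to 3.47) and Ifng by 0.59 (95% interval 0.33 to 0.85), while Gzmb differed by -0.18 (95% interval -0.29 to -0.08), a direction that changed with TMM. Ccl4 was higher with anti-PD-L1 by 2.25 (95% interval 2.04 to 2.47), Vps37b by 3.00 and Dusp5 by 3.07. Spp1 and Fabp5 were lower, with folds of -2.52 and -2.72. Over the 4 libraries of gated cells, Gzmb had 4665 CPM in KO anti-PD-L1, 5435 in KO untreated, 4152 in WT anti-PD-L1 and 4715 in WT untreated, and these values lay within 1.5-fold of each other.

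**Figure D5:**
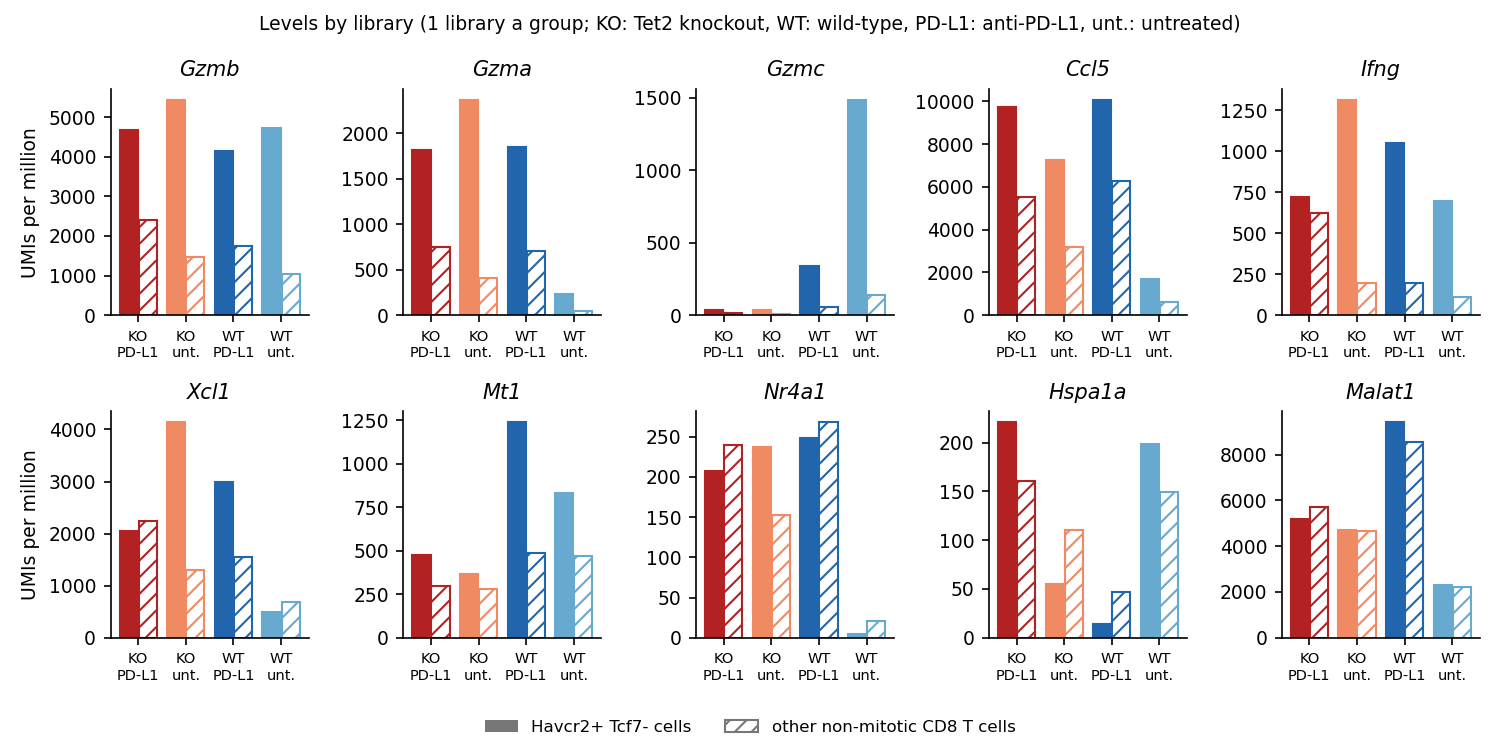
Levels of 10 genes by library in CPM (bars from 0, 1 library a group), with Havcr2+ Tcf7- cells as filled bars and the other non-mitotic CD8 T cells as hatched bars. Gzmb in the gated cells stays between 4152 and 5435 CPM, Gzmc is high in WT untreated (1485 CPM), and Ifng in KO gated cells is lower with anti-PD-L1 (721 CPM) than without (1314 CPM).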

How the data were processed

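The 4 single-cell libraries of tumour CD8 T cells were analysed, each a table of raw UMI counts that the authors deposited, with barcodes in rows and genes in columns. The submitters' processing notes name the build mm10; for the single-cell tables, the counter, the annotation and how cells were called: not given in the sources used here. Each table holds 2 listings of barcodes; the second (1346 to 2384 barcodes) was used, and the first served as an alternative. The 28030 gene columns shared by all tables were kept. Cells were gated as the report states, and no doublet caller was run. The gates on macrophage and pigment genes still let through a cell with 381 MHC class II UMIs in WT anti-PD-L1. A run without the top 5% of UMI totals of kept barcodes left out no gated cell. All 209, 104, 214 and 53 remained in KO anti-PD-L1, KO untreated, WT anti-PD-L1 and WT untreated. That run therefore could not check the gated cells for doublets.

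The gated cells and gene lists were chosen with earlier results of these data known. UMI counts were summed per library and cell group (195966 to 1358781 UMIs for the Havcr2+ Tcf7- cells) and tested with edgeR 4.0.16 (filterByExpr, TMM, quasi-likelihood F test, Benjamini-Hochberg), with the library as a block because both groups of cells come from the same library. DESeq2 1.42.0 was an alternative. The p-values measure how evenly the difference between cell groups repeated over these 4 libraries, which are 4 different conditions. Nothing states that the libraries came from separate animals. Tested on simulated data for the main comparison, log2 changes of 2 were recovered in 97.8% of 92 genes and changes of 1 in 71.6% of 95, over 7191 genes. The simulated sums had a fixed dispersion and the same change in every library. Real folds varied between libraries, so these rates need not hold for the real sums. Genes named are list members and, per comparison of cell groups, the 12 with the largest change each way (adjusted p under 0.05, same sign in 4 libraries, at least 50 CPM); between libraries, the 8 each way whose 95% interval lies farthest from 0, leaving out genes whose higher library owed most of its UMIs to 1 cell. Library folds use library totals, a floor of 100 CPM and exact conditional binomial intervals; where a library had no UMI, 3 UMIs stood in. Shares have exact Clopper-Pearson intervals. Intervals cover counting error only. Named genes outside these rules were chosen after their values were seen.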

Additional observations from a re-analysis of the deposited data

Results flagged for a closer look

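Several genes of the Havcr2+ Tcf7- cells differed in opposite directions under the same comparison in 2 settings, with both 95% counting intervals away from 0. The difference between the 2 folds was not tested, each rests on 1 library a group, and most involve the WT untreated library. Values are log2 folds.

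For KO over WT, first with anti-PD-L1 and then untreated, Hspa1a was 3.93 and -1.86, Spp1 1.24 and -0.80, and Fabp5 0.79 and -0.67. The genes of DNA replication and tubulin went the same way: Mcm5 1.08 and -1.27, 2810417H13Rik 0.91 and -1.83, Stmn1 0.77 and -1.11, and Tuba1b 0.78 and -1.45. The reverse held for Ccl1 at -0.83 and 0.72, Malat1 at -0.86 and 1.02, and Tsc22d3 at -1.12 and 2.19.

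For anti-PD-L1 over untreated, first in KO and then in WT, Ifng was -0.87 and 0.59, Xcl1 -1.02 and 2.61, Dusp2 -0.64 and 1.98, Ifitm3 -0.68 and 0.93, and Tsc22d3 -0.67 and 2.64. The reverse held for Hspa1a at 2.01 and -3.78, Chchd10 at 1.01 and -1.41, and Tuba1a at 0.81 and -1.26.

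Ifi27l2a, an interferon-induced gene, was lower in Havcr2+ Tcf7- cells than in the other non-mitotic CD8 T cells of both KO libraries (-0.15 with anti-PD-L1 and -0.34 untreated) and higher in both WT libraries (0.12 and 0.24).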

How the results depend on the processing

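Of the recomputed folds of single genes between libraries, 107 moved beyond their interval and 463 did not. Changes of direction were not counted apart for these, and those of Gzmb, Pdcd1 and Cxcr6 with TMM are given above. Of the recomputed folds between cell groups, 1754 kept their direction and side of the threshold, 273 lost a call, 25 gained one and 4 reversed. The reversed ones were H2-Ab1 and H2-Eb1, at -0.18 and -0.94 without cells holding a myeloid or pigment UMI, and at -0.10 and -0.78 without the highest cell of each sum (an alternative chosen after seeing the data). Against the other non-mitotic cells, the 147 higher and 196 lower genes became 83 and 79 with DESeq2, 384 and 545 with all other CD8 T cells as comparator, 76 and 93 with at least 2 Havcr2 UMIs, and 56 and 85 without any mitotic UMI; 310 were lower with no filter on low counts. With no replicate block, which ignores that both groups of cells share a library, 1 was higher and 2 lower. Leaving out 1 library gave 40 to 154 higher and 61 to 192 lower, the fewest without WT anti-PD-L1, and 84 higher without KO untreated. Without WT untreated, the library that stood apart, they were 154 and 192. Of the 12 most increased genes 12 kept their call under DESeq2 and 11 without WT anti-PD-L1. Of the 12 most decreased, Rgs10 lost it under DESeq2. Of the 147 higher genes 102 were also called with the first listing of barcodes. Against Tcf7-positive cells, DESeq2 gave 178 and 184, and leaving out 1 library gave 199 to 358 higher and 248 to 367 lower, the fewest without WT anti-PD-L1. Against double-negative cells, DESeq2 gave 32 lower, and leaving out 1 library gave 27 to 74 higher and 20 to 90 lower; without KO anti-PD-L1 56 were lower, without KO untreated 36 were higher and 25 lower, and the fewest were called without WT anti-PD-L1. The causes were not tested.

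Between libraries, a floor of 50 CPM gave, as higher and lower, 327 and 462 for KO over WT untreated, 99 and 54 with anti-PD-L1, 139 and 82 for anti-PD-L1 over untreated in KO and 357 and 667 in WT. A floor of 200 CPM gave 74 and 80, 7 and 15, 21 and 9, and 101 and 153 in that order, since other numbers of genes pass. With TMM, 100 were lower for KO over WT untreated, 16 higher for KO over WT with anti-PD-L1 and 195 lower for anti-PD-L1 over untreated in WT; with the first listing 40 were higher for KO over WT with anti-PD-L1. The shares moved with the denominator and the gate, in KO anti-PD-L1, KO untreated, WT anti-PD-L1 and WT untreated: 11.8%, 4.93%, 10.8% and 3.06% thinned, 31.2%, 11.6%, 22.1% and 10.5% of non-mitotic cells, 18.0%, 8.84%, 14.8% and 7.47% with both, and 8.06%, 1.37%, 5.71% and 1.20% with at least 2 Havcr2 UMIs. The 53 gated cells of WT untreated limit every value of that library.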
